A study of Mus musculus with 9 samples.

Results

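Interferon-stimulated genes are the antiviral genes that cells switch on when interferon binds its receptors. Type I interferons act through the receptor chains IFNAR1 and IFNAR2, the kinases JAK1 and TYK2, and a transcription factor complex containing STAT2 and IRF9 that binds an interferon-stimulated response element (ISRE) in target promoters. Interferon gamma acts through IFNGR1 and IFNGR2 and on gamma-activated sites (GAS) in promoters, and is known for inducing families of large GTPases. The 42 genes described here were chosen by name, and all 42 were found among the 46958 genes of the count table and passed the filter on low counts, which left 14199 genes.

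RNA was sequenced from splenic plasma cells of unimmunized mice, 3 months of age, isolated with magnetic beads against CD138 (syndecan-1) to a stated purity above 80%. Each library was made from the CD138+ cells of 1 spleen, and 3 libraries were made per genotype: WT, DH-LMP2A and kFRA (LCDD), all on a mixed C57/BL6x129/SVxBALB/c background. DH-LMP2A is known as an allele that places the LMP2A gene of Epstein-Barr virus in the immunoglobulin heavy-chain locus, so that B cells mature without a heavy chain. kFRA carries a light chain of light chain deposition disease (LCDD), and the series concerns the toxicity of that free light chain to plasma cells. The labels do not describe the alleles and do not say whether kFRA mice also carry DH-LMP2A. Ighm, the mu heavy-chain constant gene, was at 154000 to 184000 CPM (counts scaled to the size of the library) in WT, 9370 to 10000 in DH-LMP2A and 6980 to 10500 in kFRA.

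Libraries held 15449026 to 21558128 counts, so that the floor of 3 counts corresponded to 0.127 to 0.205 CPM. The plasma cell markers Sdc1, Prdm1, Xbp1, Irf4, Jchain, Mzb1, Tnfrsf17 and Slamf7 summed to 18900 to 24100 CPM in WT, 34100 to 47200 in DH-LMP2A and 20400 to 32100 in kFRA. Most of each sum was Jchain, at 15700 to 19900 CPM in WT, 27000 to 38600 in DH-LMP2A and 14700 to 25400 in kFRA. Markers of other spleen cells were present in every genotype. The summed B cell markers were at 631 to 916 CPM in WT, 732 to 1100 in DH-LMP2A and 540 to 635 in kFRA. The T cell sums were 91.6 to 152, 106 to 156 and 78.6 to 97.2 CPM in the same order, the NK cell sums 3.55 to 9.17, 2.55 to 14.7 and 1.57 to 3.14 CPM, and those of plasmacytoid dendritic cells 15.8 to 22, 11.7 to 24.4 and 10.9 to 23.7 CPM. The granulocyte sums were 271 to 858, 21 to 275 and 6.84 to 25.7 CPM, and the erythroid sums 34.8 to 305, 2290 to 12100 and 1030 to 2460 CPM. In bulk RNA, fewer cells of a type and less RNA per cell cannot be told apart. Xist divided the libraries: kFRA replicate 2, WT replicates 1 and 3, and replicates 1 and 2 of DH-LMP2A held 495 to 924 CPM, the other 4 libraries 4.48 CPM or less. Ddx3y, a gene of the Y chromosome, was at 0 CPM in the former and at 40.8 to 55.8 CPM in the latter. By Xist and Ddx3y, the sex of the mice was therefore not balanced over the genotypes.

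The cores of these elements were searched in promoter windows. RefSeq windows (GRCm38.p6) from 250 bases before to 50 after the start of a gene were found for 31 of the 42 genes. The ISRE core, GAAA followed by any 2 bases and GAAA again, searched on both strands, was in the window of 17 of these 31 genes (54.8%) and of 3.99% of all 27025 genes with a window. The GAS core TTCNNNGAA, which reads the same on both strands and can overlap an ISRE core, was in 7 of 31 (22.6%) and in 9.55% of all genes. Of the 8 interferon-inducible GTPases with a window, 7 held the ISRE core and 4 the GAS core. Neither core was in the windows of 13 of the 31 genes: Cmpk2, Dtx3l, Herc6, Ifi44, Ifi47, Irf7, Irf9, Lgals3bp, Oasl1, Oasl2, Samd9l, Trim25 and Xaf1. A match is a stretch of letters and not a measured binding site, and no match says only that these letters are not in the window. The windows of 5 genes whose values are described below are shown 5′ to 3′ on the strand of the gene, with ISRE and GAS core matches in capitals. They are the paired elements of Ifit1 (chr19:34640639-34640938, plus strand) and Ifit3 (chr19:34583279-34583578, plus strand), the run of 3 overlapping cores of Isg15 (chr4:156200769-156201068, minus strand), the neighbouring GAS and ISRE cores of Igtp (chr11:58199306-58199605, plus strand), and the window without a match of Oasl2 (chr5:114896684-114896983, plus strand), the gene with the largest fold change in kFRA.
Ifit1: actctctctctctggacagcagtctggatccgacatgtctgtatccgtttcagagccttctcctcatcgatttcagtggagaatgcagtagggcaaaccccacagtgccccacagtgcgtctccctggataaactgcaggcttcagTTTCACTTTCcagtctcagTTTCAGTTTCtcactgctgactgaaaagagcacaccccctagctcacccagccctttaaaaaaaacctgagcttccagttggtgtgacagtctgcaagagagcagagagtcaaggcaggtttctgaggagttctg
Ifit3: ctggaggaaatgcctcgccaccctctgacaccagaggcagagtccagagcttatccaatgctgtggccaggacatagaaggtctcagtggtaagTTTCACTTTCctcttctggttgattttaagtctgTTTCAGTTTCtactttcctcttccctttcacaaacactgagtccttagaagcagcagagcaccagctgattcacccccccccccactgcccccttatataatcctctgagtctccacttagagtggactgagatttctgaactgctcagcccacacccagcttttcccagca
Isg15: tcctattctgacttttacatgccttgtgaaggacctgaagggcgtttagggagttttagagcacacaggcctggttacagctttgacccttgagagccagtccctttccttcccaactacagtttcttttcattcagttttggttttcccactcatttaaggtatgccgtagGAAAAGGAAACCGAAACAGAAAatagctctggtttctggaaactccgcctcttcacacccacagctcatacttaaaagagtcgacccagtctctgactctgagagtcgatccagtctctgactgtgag
Igtp: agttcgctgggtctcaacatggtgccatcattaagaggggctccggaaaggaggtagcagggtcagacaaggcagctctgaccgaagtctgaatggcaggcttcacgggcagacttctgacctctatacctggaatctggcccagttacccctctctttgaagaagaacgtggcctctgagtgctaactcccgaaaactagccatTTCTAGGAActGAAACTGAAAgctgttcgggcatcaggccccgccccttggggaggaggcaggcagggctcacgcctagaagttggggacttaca
Oasl2: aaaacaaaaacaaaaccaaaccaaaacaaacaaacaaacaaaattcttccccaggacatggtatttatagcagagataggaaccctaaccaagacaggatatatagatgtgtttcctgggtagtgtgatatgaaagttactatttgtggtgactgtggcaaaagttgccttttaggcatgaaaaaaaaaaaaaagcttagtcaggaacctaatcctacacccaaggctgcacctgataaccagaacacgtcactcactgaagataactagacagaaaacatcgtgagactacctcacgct
The Ifit1 and Ifit3 cores are read on the opposite strand and begin 104 and 85 bases before the start in Ifit1 and 156 and 122 in Ifit3. The GAS core of Igtp begins 45 and its ISRE core 34 bases before the start.

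Part of the 42 interferon-stimulated genes fell against WT in the plasma cell fraction of kFRA mice, DH-LMP2A mice or both. Among them were genes of the IFIT and OAS families, Isg15, Irf9 and several GTPases. In kFRA against WT, 17 of the 42 genes fell and none rose, where 11.1% of all genes tested fell and 6.68% rose (edgeR quasi-likelihood test, Benjamini-Hochberg adjusted p under 0.05 over all genes). In DH-LMP2A against WT, 12 of 42 fell and none rose, with 7.3% of all genes lower and 5.07% higher. Across the 42 genes the median log2 fold change was −1.31 in kFRA and −1.18 in DH-LMP2A, beside −0.04 and −0.01 over all genes. Between kFRA and DH-LMP2A none of the 42 passed (5.02% of all genes did), and the median log2 fold change was 0.06. Without adjustment 4 had an edgeR p under 0.05, for which the share of all genes was not counted. By direction, 1.73% of all genes were higher and 3.3% lower in kFRA than in DH-LMP2A. The log2 fold change was below 0 for 38 of the 42 genes in kFRA against WT (52.6% of all genes), for 41 in DH-LMP2A against WT (50.9%) and for 20 in kFRA against DH-LMP2A (50.4%). The libraries lay apart without overlap, on the lower side, for 25 genes in kFRA against WT (20.2% of all genes) and for 29 in DH-LMP2A against WT (19.1%). Between kFRA and DH-LMP2A they lay apart for 5 (4 higher in kFRA and 1 lower), where 25.6% of all genes did. These comparisons share libraries, WT being the common control of 2 of them. In both comparisons with WT, 9 genes passed, and 20 passed in at least 1. The share of all genes was not counted for either. For 20 genes all 3 WT libraries lay above all 6 others, as for 12.2% of the genes tested.

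**Figure D1:**
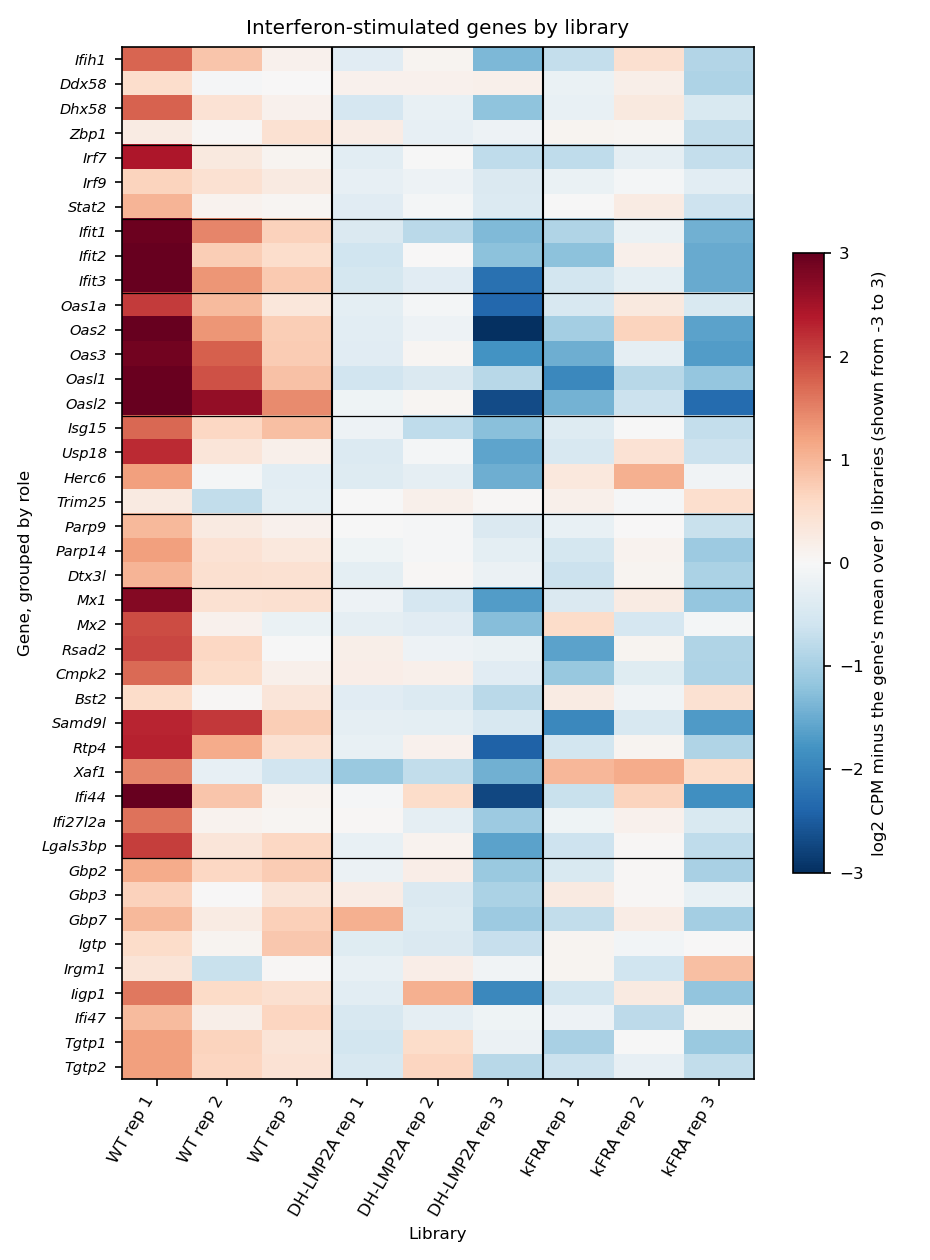
Heat map of the 42 genes (rows, grouped by role, lines between roles) in the 9 libraries (columns). Colour gives log2 CPM minus the mean of the gene over the 9 libraries, shown from -3 to 3. WT replicate 1 is the darkest red column, and DH-LMP2A replicate 3 holds the most low values.

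The libraries of 1 genotype differed widely. WT replicate 1 was the highest of the 9 libraries for 37 of the 42 genes, where it was the highest for 15.7% of all genes. It was at least 2-fold above the mean of the other WT libraries for 23 of them, against 3.27% of all genes. DH-LMP2A replicate 3 was the lowest of the 9 for 25 of the 42 (12.9% of all genes). Within kFRA, replicate 2 was the highest for 34 of the 42 (43.6% of all genes). The exceptions to the lead of WT replicate 1 were Zbp1 and Igtp, highest in WT replicate 3, Trim25 and Irgm1, highest in kFRA replicate 3, and Gbp7, highest in DH-LMP2A replicate 1.

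Without WT replicate 1, 8 genes passed in kFRA against WT, of which 7 fell (Oasl1, Oasl2, Oas3, Samd9l, Ifit1, Irf9 and Cmpk2) and 1, Xaf1, rose, and the median log2 fold change was −0.81. In DH-LMP2A against WT 6 fell without it (Isg15, Oasl1, Samd9l, Irf9, Igtp and Ifit1), with a median of −0.7. The background was then 11.7% and 8.72% of all genes called. The first count was 3 without kFRA replicate 1, 5 without kFRA replicate 3 and 11 without DH-LMP2A replicate 1, which enters through the common spread, where 8.84%, 10.5% and 14.2% of all genes were called, so that 3 of 42 is no larger a share than that of all genes. The second was 7 without DH-LMP2A replicate 1 and 7 without DH-LMP2A replicate 3 (6.42% and 9.3% of all genes). Without WT replicate 1 and kFRA replicate 2 together, a setting added after the values were seen, 18 passed in kFRA against WT, 2 of them higher, and 29.6% of all genes did. The calls were not equally firm over the 9 fits without 1 library. In kFRA against WT Oasl1, Oasl2 and Samd9l held in 9, Irf9 in 8, and Ifit1, Oas3 and Cmpk2 in 7. Ifit3, Isg15 and Dtx3l held in 6, Tgtp1 in 5, Irf7, Ifit2 and Tgtp2 in 4, Gbp2 and Parp14 in 3, Ifi47 in 2. In DH-LMP2A against WT Ifit1, Irf9, Isg15, Igtp, Oasl1 and Samd9l held in 9. Ifit3 and Oasl2 held in 6, Oas3 in 5, Bst2 in 4, Ifi47 in 3 and Dhx58 in 2.

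Levels of macrophage markers were also set beside these genes. Over 7 markers (Adgre1, Csf1r, Cd68, Vcam1, C1qa, C1qb and Mertk) the summed level was 5630, 4460 and 3250 CPM in WT replicates 1, 2 and 3, 2650, 3330 and 1090 CPM in DH-LMP2A and 2160, 3500 and 2130 CPM in kFRA. WT replicate 1 was thus highest and DH-LMP2A replicate 3 lowest on both measures. The eighth listed marker, Ly6c2, was left out of this sum after its values were seen, being at 204 to 454 CPM in WT and 2110 to 4030 CPM in the other libraries. With it the sums were 3700 to 6080 CPM in WT, 3200 to 5500 in DH-LMP2A and 5660 to 6160 in kFRA. The highest library was then kFRA replicate 3 (6160 CPM) and not WT replicate 1 (6080 CPM). None of the 7 passed the edgeR test, with median log2 fold changes of −0.8 in kFRA and −1.01 in DH-LMP2A against WT, and none was at 0 in any library. With the mean of the 7 markers as a covariate, also added after the values were seen, 4 interferon-stimulated genes fell in kFRA against WT (Oasl1, Oasl2, Oas3 and Samd9l) and 1 in DH-LMP2A against WT (Oasl2), and the medians were −0.47 and −0.37, where 10.2% and 6.49% of all genes passed. With a covariate of B cell, T cell, macrophage and granulocyte markers these counts were 0 and 4, where 1.99% and 7% of all genes passed. This covariate included Ly6c2. Several of its markers differed between the genotypes, as the calls below show, so that it cannot be fully told apart from genotype. Of the plasma cell markers, Mzb1 and Slamf7 rose and Tnfrsf17 fell against WT in both genotypes by the edgeR test, and Prdm1 rose in DH-LMP2A. Sdc1, Xbp1, Irf4 and Jchain passed in no comparison. Markers of other cells passed the edgeR test as well. In kFRA against WT 4 of 8 B cell markers fell (Cd22, Fcer2a, Pax5 and Cr2, with Cd22 at −3.6, edgeR adjusted p = 0.00434), as did the granulocyte markers S100a8 (−6.01, edgeR adjusted p = 0.00398), S100a9 and Retnlg, the NK cell marker Eomes, and Ccr9, Cox6a2 and Pacsin1 of the plasmacytoid dendritic cell list, of which Siglech rose (3.03, edgeR adjusted p = 0.00156). In DH-LMP2A against WT Cd22 (−2.78, edgeR adjusted p = 0.0136), Eomes and Pacsin1 fell, while Ms4a1, Cr2, Cd28, Ncr1, Mpo and Klk1 rose. The erythroid genes Hba-a1, Hbb-bs and Alas2 and the monocyte marker Ly6c2 rose in both. The part of other cells in the differences was not tested.

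**Figure D2:**
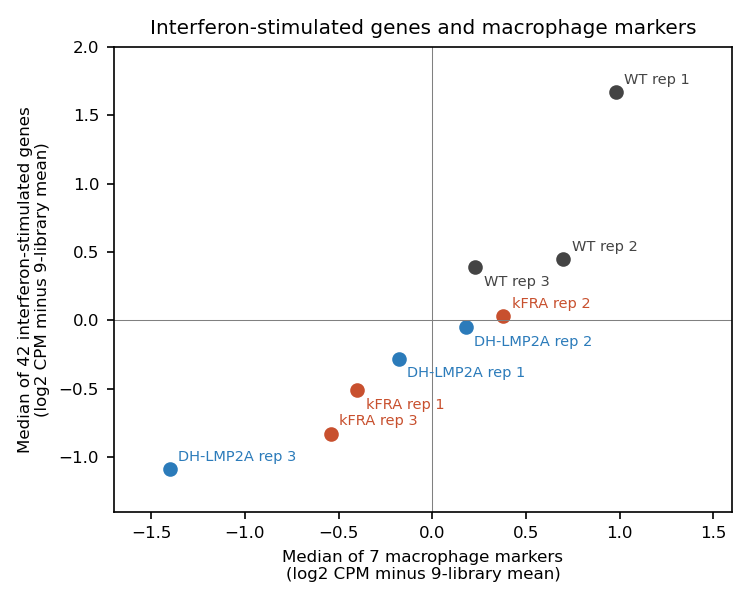
Each point is 1 library. The x axis gives the median over 7 macrophage markers and the y axis the median over the 42 genes, both as log2 CPM minus the mean of each gene over the 9 libraries. The eighth listed marker, Ly6c2, was left out after its values were seen. WT replicate 1 is at 0.98 and 1.67, DH-LMP2A replicate 3 at -1.4 and -1.09, and kFRA replicate 2 at 0.38 and 0.03.

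Differences from WT were also taken within each group of libraries set apart by Xist. Among the 5 libraries with high Xist, the difference of kFRA replicate 2 from the mean of the WT libraries was below 0 for 40 of 42 genes (median −0.86 on the log2 scale), and that of DH-LMP2A for 41 of 42 (−1.08). Among the 4 with low Xist, 35 of 42 were below 0 in kFRA (−1.21) and 39 of 42 in DH-LMP2A (−1.41). Between 50.2% and 54.6% of all genes were below 0 in these comparisons. Some arms held a single library, so these are values without a test. In kFRA replicate 2 was the only library with high Xist. The only libraries with low Xist were replicate 2 in WT and replicate 3 in DH-LMP2A. The low Xist difference of DH-LMP2A from WT was thus 1 library against 1. DH-LMP2A replicate 3, in the low group, was the lowest of the 9 libraries for 25 of the 42 genes. WT replicate 1, in the high group, was the highest for 37. The part of sex in the spread of the libraries was not tested.

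The IFIT proteins bind foreign RNA and block its translation. Ifit1 (chromosome 19, 34640871 to 34650009) was at 15.1, 5.3 and 3.06 CPM in WT replicates 1 to 3, at 1.35, 1.02 and 0.686 CPM in DH-LMP2A and at 0.958, 1.62 and 0.627 CPM in kFRA. The WT libraries lay above all others, though WT replicate 1 was far above the other WT libraries. Ifit1 fell by 2.85 on the log2 scale in kFRA (SE 0.613, edgeR adjusted p = 0.0135) and by 2.93 in DH-LMP2A (SE 0.608, edgeR adjusted p = 0.0132). Ifit3, its partner in RNA binding (chromosome 19, 34583531 to 34588731), had 82.4, 20.1 and 13.7 CPM in WT, 5.5, 6.22 and 1.6 CPM in DH-LMP2A and 5.4, 6.47 and 2.7 CPM in kFRA, again without overlap. Its log2 fold changes were −2.99 (edgeR adjusted p = 0.0235) and −3.12 (edgeR adjusted p = 0.0238). Ifit2 was at 36, 6.68 and 5.8 CPM in WT, 2.58, 3.99 and 1.65 CPM in DH-LMP2A and 1.64, 4.47 and 1.32 CPM in kFRA, so that the WT libraries again lay above the rest. It passed in kFRA (−2.68, edgeR adjusted p = 0.0418) but not in DH-LMP2A (−2.56, edgeR adjusted p = 0.0595). The difference between those genotypes was −0.12 (edgeR adjusted p = 0.945).

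The OAS proteins sense double-stranded RNA, and OAS1, OAS2 and OAS3 make the second messenger that activates RNase L. Oasl2 and Oasl1 had the largest fold changes of the 42 genes in kFRA. Oasl2 (chromosome 5, 114896936 to 114912234) was at 68.4, 51.8 and 22.1 CPM in WT replicates 1 to 3, at 7.49, 8.58 and 1.19 CPM in DH-LMP2A and at 3.01, 5.23 and 1.57 CPM in kFRA. It was 14.3-fold lower in kFRA (a log2 difference of −3.84 with SE 0.726, edgeR adjusted p = 0.00738) and 8.23-fold lower in DH-LMP2A (−3.04, SE 0.688, edgeR adjusted p = 0.0199). WT replicate 2 stood close to WT replicate 1 here. Oasl1, an OAS-like protein known to hold back IRF7 (chromosome 5, 114923240 to 114937915), was at 19.1, 9.13 and 4.46 CPM in WT, 1.57, 1.72 and 1.28 CPM in DH-LMP2A and 0.547, 1.28 and 1 CPM in kFRA. Its log2 fold changes were −3.5 in kFRA (SE 0.537, edgeR adjusted p = 0.00266) and −2.84 in DH-LMP2A (SE 0.506, edgeR adjusted p = 0.00669). Both calls held in each of the 9 fits without 1 library. Oas3 was at 48.7, 22.7 and 11.1 CPM in WT, 5.08, 6.77 and 1.78 CPM in DH-LMP2A and 2.26, 5.38 and 1.94 CPM in kFRA. It fell in kFRA (−3.08, edgeR adjusted p = 0.0131) and in DH-LMP2A (−2.6, edgeR adjusted p = 0.0283). Oas1a and Oas2 did not pass. By exon overlap with another gene, or reads shared with similar copies, the values of 13 of the 42 genes and of the IFIT, OAS, GBP and Tgtp families are uncertain. Oas2 had the widest range of all 42 genes over the 9 libraries, 6.54 on the log2 scale, from 0.549 CPM in DH-LMP2A replicate 3 to 60.5 CPM in WT replicate 1, while both genes kept the WT libraries above the others.

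**Figure D3:**
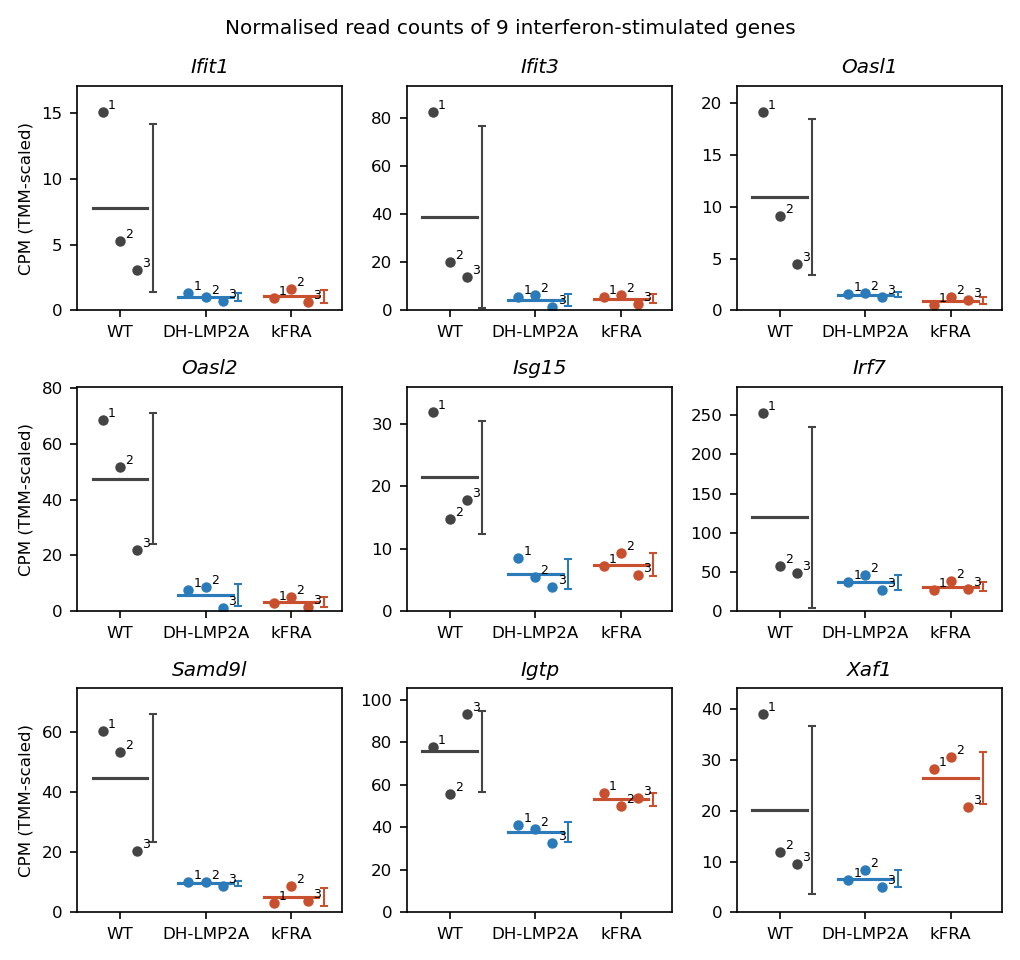
Normalised read counts (CPM, linear axis from 0) of 9 of the genes in the 9 libraries. Points are libraries numbered by replicate, lines are means and bars the SD of 3 libraries. WT lies above the others for Ifit1, Ifit3, Oasl1, Oasl2, Isg15, Irf7 and Samd9l, while Xaf1 in kFRA (20.8 to 30.5 CPM) lies above DH-LMP2A and above WT replicates 2 and 3.

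Isg15 encodes a ubiquitin-like protein that is attached to other proteins, and Usp18 the protease that removes it and damps signalling at IFNAR2. Isg15 (chromosome 4, 156199424 to 156200818) was at 31.8, 14.7 and 17.8 CPM in WT, 8.59, 5.52 and 3.94 CPM in DH-LMP2A and 7.25, 9.37 and 5.77 CPM in kFRA. It fell by 1.52 on the log2 scale in kFRA (SE 0.362, edgeR adjusted p = 0.0203) and by 1.83 in DH-LMP2A (SE 0.364, edgeR adjusted p = 0.011), without overlap of the libraries. Usp18 was at 17.5 CPM in WT replicate 1 and 4.08 to 4.74 CPM in the other WT libraries, against 1.14 to 4.95 CPM elsewhere, and did not pass in either (edgeR adjusted p = 0.139 and 0.0909). Herc6, the main ISG15 ligase of mice, was at 26.4, 10.8 and 9.04 CPM in WT, 8.5, 9.37 and 3.98 CPM in DH-LMP2A and 14, 23.6 and 10.4 CPM in kFRA. The kFRA libraries lay above those of DH-LMP2A, but the difference did not pass (log2 fold change 1.14, edgeR adjusted p = 0.206). Trim25, the ubiquitin ligase that activates RIG-I, was at 132 to 312 CPM in all 9 libraries and had log2 fold changes of 0.41 and 0.25 that did not pass (edgeR adjusted p = 0.264 and 0.604).

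Of the 3 transcription factors, Irf9, the DNA-binding partner of STAT2, differed most evenly. It was at 72.7, 62 and 54.9 CPM in WT, 38.2, 41.1 and 33.3 CPM in DH-LMP2A and 39.7, 43.7 and 36.3 CPM in kFRA. The log2 fold changes were −0.66 (SE 0.145, edgeR adjusted p = 0.0142) and −0.75 (SE 0.145, edgeR adjusted p = 0.00958), and its range over the 9 libraries, 1.12 on the log2 scale, was the narrowest of the 42. Irf7, which amplifies the production of type I interferon, was at 252 CPM in WT replicate 1 and 57.2 and 49.4 CPM in WT replicates 2 and 3, against 37.2, 46.5 and 27.5 CPM in DH-LMP2A and 27.5, 38.4 and 28.5 CPM in kFRA. Irf7 passed in kFRA (−1.92, SE 0.567, edgeR adjusted p = 0.0449) and not in DH-LMP2A (−1.69, edgeR adjusted p = 0.0852), and in neither without WT replicate 1. Stat2 was at 65.2 to 127 CPM in WT and 40.3 to 74.1 CPM elsewhere and did not pass (edgeR adjusted p = 0.206 and 0.148).

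Among the sensors of nucleic acid, Dhx58 (LGP2, a regulator of the RIG-I and MDA5 receptors) fell by 1.56 on the log2 scale in DH-LMP2A (SE 0.437, edgeR adjusted p = 0.0472). It was at 45.9, 18.1 and 14.8 CPM in WT, 9.52, 11.5 and 5.77 CPM in DH-LMP2A and 11.6, 16.5 and 9.85 CPM in kFRA, where it did not pass (−1.05, edgeR adjusted p = 0.118). Ifih1, which encodes MDA5, was at 15 to 46.3 CPM in WT, 5.31 to 14.5 CPM in DH-LMP2A and 7.34 to 19.2 CPM in kFRA and did not pass (edgeR adjusted p = 0.11 and 0.0989). Ddx58, which encodes RIG-I, was at 77.1 to 115 CPM in WT, 87 to 89 CPM in DH-LMP2A and 42 to 90 CPM in kFRA, and the Z-nucleic acid sensor Zbp1 at 39.7 to 91.5 CPM over all libraries. Neither passed in any comparison.

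Parp9, Dtx3l and Parp14 lie side by side on chromosome 16 and encode ADP-ribosyl transferases and a ubiquitin ligase partner that enhance interferon signalling. The 3 WT libraries lay above all others for each. Dtx3l was at 68.6, 47.4 and 46.9 CPM in WT, 27.6, 34.6 and 29.8 CPM in DH-LMP2A and 21.6, 35.8 and 17.4 CPM in kFRA, and fell in kFRA (−1.12, SE 0.266, edgeR adjusted p = 0.02). Parp14, at 165, 95.7 and 87.2 CPM in WT, 64.4, 68.7 and 57.8 CPM in DH-LMP2A and 48.8, 76.2 and 32.9 CPM in kFRA, fell in kFRA as well (−1.14, SE 0.321, edgeR adjusted p = 0.0382). Parp9 passed in neither (edgeR adjusted p = 0.065 and 0.13), nor did Dtx3l and Parp14 in DH-LMP2A (edgeR adjusted p = 0.0754 and 0.114). Parp9 and Dtx3l overlap on opposite strands, which makes both values uncertain.

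**Figure D4:**
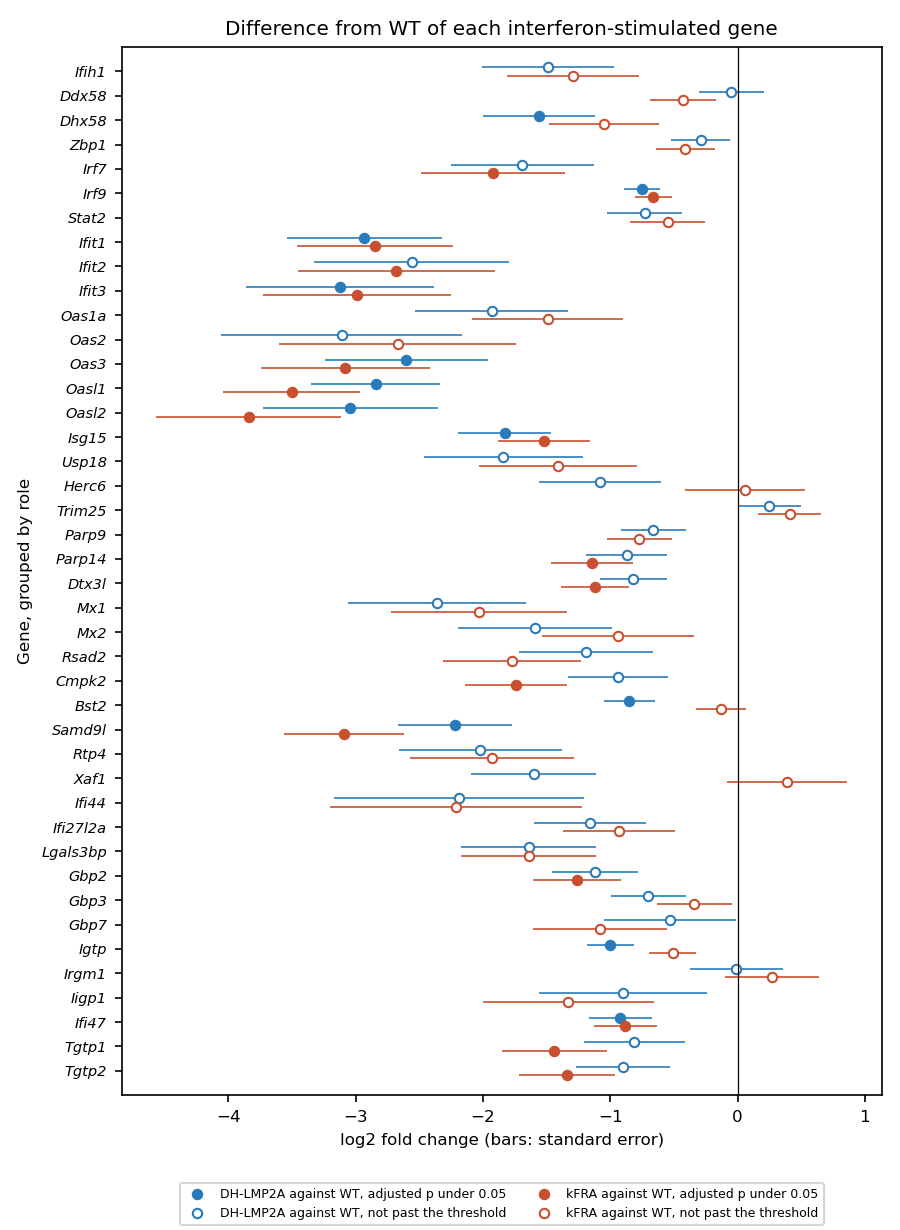
Log2 fold change from WT (x axis) of each of the 42 genes in DH-LMP2A and kFRA, with bars of 1 standard error. Filled points have an adjusted p under 0.05: 12 in DH-LMP2A and 17 in kFRA, all below 0. The same WT libraries enter both comparisons.

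Of 11 antiviral effectors, 2 fell in each comparison with WT, beside 11.1% of all genes in kFRA and 7.3% in DH-LMP2A. So small a count is close to the background. Samd9l, a restriction factor of poxviruses (chromosome 6, 3372257 to 3399572), was at 60.3, 53.5 and 20.5 CPM in WT, 10.2, 9.97 and 8.74 CPM in DH-LMP2A and 3.15, 8.75 and 3.7 CPM in kFRA. It fell by 3.09 on the log2 scale in kFRA (SE 0.471, edgeR adjusted p = 0.0026) and by 2.22 in DH-LMP2A (SE 0.448, edgeR adjusted p = 0.0119). Leaving out any 1 of the 9 libraries ended neither call. Cmpk2, a mitochondrial nucleotide kinase next to Rsad2 on chromosome 12, fell in kFRA (−1.74, SE 0.404, edgeR adjusted p = 0.0184), with 26.9, 12 and 9.04 CPM in WT, 3.69, 6.37 and 4.27 CPM in kFRA and 9.35, 9.14 and 6.5 CPM in DH-LMP2A. Rsad2, which encodes viperin, was at 9.55 to 38.7 CPM in WT and 3.08 to 10.2 CPM in kFRA and did not pass (edgeR adjusted p = 0.0519). Bst2, the tetherin that holds budding virions at the cell surface, was at 113, 79 and 99.2 CPM in WT, 60.3, 57.4 and 44 CPM in DH-LMP2A and 91.1, 70.8 and 105 CPM in kFRA. It fell in DH-LMP2A (−0.85, SE 0.198, edgeR adjusted p = 0.0227) and not in kFRA (−0.13, edgeR adjusted p = 0.67), and the difference of kFRA from DH-LMP2A did not pass (0.72, edgeR adjusted p = 0.0739).

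The other effectors passed in no comparison. Mx1 and Mx2, dynamin-like GTPases that many laboratory strains carry in defective form, were at 30.7 and 8.66 CPM in WT replicate 1, while in the other 8 libraries Mx1 lay between 1.33 and 6.31 CPM and Mx2 between 0.824 and 3.21 CPM. Rtp4 and Ifi44 had their highest values in WT replicate 1 (36.8 and 32.1 CPM) and their lowest in DH-LMP2A replicate 3 (1.28 and 0.458 CPM). Lgals3bp, a secreted glycoprotein, was at 623 CPM in WT replicate 1, 192 and 229 CPM in the other WT libraries and 48.7 to 161 CPM elsewhere. Per length, Ifi27l2a had the highest level of the 42 genes (197 RPKM, that is CPM per kilobase of exon, mean of 9 libraries), followed by Bst2 (105) and Lgals3bp (66.9), and Mx2 the lowest (0.734).

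Xaf1, which encodes an antagonist of the apoptosis inhibitor XIAP, had another pattern. Xaf1 (chromosome 11, 72301629 to 72313733) was at 39.1, 11.8 and 9.43 CPM in WT, 6.43, 8.44 and 5.08 CPM in DH-LMP2A and 28.2, 30.5 and 20.8 CPM in kFRA. Every kFRA library lay above the DH-LMP2A libraries and above WT replicates 2 and 3. The difference from DH-LMP2A narrowly missed the threshold (1.99 on the log2 scale with SE 0.495, edgeR adjusted p = 0.052) and passed with the DESeq2 Wald test (adjusted p = 0.00056) and in the fit of the 6 libraries compared (edgeR adjusted p = 0.00404). Over all alternatives the adjusted p of this difference ran from 0.00056 to 0.312. It passed in 3 of the 9 fits that left out 1 library (without kFRA replicate 2, WT replicate 1 or WT replicate 3), and it did not pass with library size alone (edgeR adjusted p = 0.142), at a mean of at least 5 CPM (0.061), without immunoglobulin genes (0.0501) or with the covariate of other cells' markers (0.312). Without WT replicate 1, Xaf1 was higher in kFRA than in WT (1.32, edgeR adjusted p = 0.0155) and than in DH-LMP2A (1.99, edgeR adjusted p = 0.0018). Xaf1 and Bst2 were the genes that the DESeq2 test called between kFRA and DH-LMP2A. It called 9.9% of all genes there, so that 2 of 42 is no larger a share.

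The interferon-inducible GTPases attack the membranes around intracellular pathogens. Of 9, 4 fell in kFRA and 2 in DH-LMP2A, beside 11.1% and 7.3% of all genes. Igtp (Irgm3, chromosome 11, 58199556 to 58207591) was at 78, 55.8 and 93.5 CPM in WT, 41.3, 39.4 and 32.8 CPM in DH-LMP2A and 56.2, 50.1 and 53.7 CPM in kFRA, and fell in DH-LMP2A (−1, SE 0.186, edgeR adjusted p = 0.00831) but not in kFRA (−0.51, edgeR adjusted p = 0.0861). It passed in each fit that left out 1 library, and WT replicate 1 was not its highest library. Ifi47 (Irg47) was at 50.1, 29.3 and 40.6 CPM in WT, 18.5, 21.4 and 23.5 CPM in DH-LMP2A and 23.1, 15 and 27 CPM in kFRA, and fell in kFRA (−0.88, edgeR adjusted p = 0.0381) and in DH-LMP2A (−0.92, edgeR adjusted p = 0.0406). Gbp2, a guanylate-binding protein, fell in kFRA (−1.26, SE 0.343, edgeR adjusted p = 0.0337), with 42.5, 30.3 and 33.1 CPM in WT, 14.2, 19.9 and 9.85 CPM in kFRA and 17.2, 22.4 and 8.97 CPM in DH-LMP2A. The neighbouring and similar Tgtp1 and Tgtp2 both fell in kFRA (−1.44, edgeR adjusted p = 0.0406, and −1.34, edgeR adjusted p = 0.0372). Tgtp1 was at 8.36, 5.56 and 4.59 CPM in WT, 2.33, 5.15 and 3.07 CPM in DH-LMP2A and 1.71, 3.47 and 1.57 CPM in kFRA. Tgtp2 was at 34.9, 23.2 and 20.1 CPM in WT and 9.44, 12.5 and 8.84 CPM in kFRA, and DH-LMP2A, at 10.7, 23.1 and 8.24 CPM, overlapped with WT. Gbp3, Gbp7, Irgm1 and Iigp1 passed in no comparison. Irgm1 was at 42.5 to 87.9 CPM in WT, 58 to 77.7 CPM in DH-LMP2A and 44.2 to 126 CPM in kFRA, which overlapped throughout.

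Further genes of the interferon pathway were counted from a list of 86, of which 65 were tested. In kFRA against WT 16 fell and 1 rose (11.1% and 6.68% of all genes), and in DH-LMP2A against WT 10 fell and 1 rose (7.3% and 5.07%). Between kFRA and DH-LMP2A none passed (5.02% of all genes). The DESeq2 Wald test called 6 of the 65, near the 9.9% of all genes that it called. Without adjustment 15 had an edgeR p under 0.05, for which the share of all genes was not counted. None of the 19 interferon ligand genes was tested: 16 had no count in any library, and no ligand gene had more than 2 counts in a library, so their transcripts were not detectable at this depth. Of the receptors, Ifnar1 was at 61.4, 63.5 and 66.3 CPM in WT, 69.6, 67.6 and 73.3 CPM in DH-LMP2A and 66.1, 81.3 and 46.2 CPM in kFRA, with no call. Ifnar2 rose in DH-LMP2A (log2 fold change 0.88, edgeR adjusted p = 0.00614), from 57.4 to 65 CPM in WT to 104 to 129 CPM, and was at 67.5 to 94.6 CPM in kFRA. Ifngr2, the signalling chain of the interferon gamma receptor, fell in both (−0.87, edgeR adjusted p = 0.00291, and −0.85, edgeR adjusted p = 0.00375), from 32.4 to 38.3 CPM in WT to 17.9 to 21.5 CPM in DH-LMP2A and 17.2 to 21.6 CPM in kFRA. Ifngr1 fell in kFRA (−1.03, edgeR adjusted p = 0.0228). Ifnlr1, the interferon lambda receptor, was at 3.44 to 4.46 CPM in WT, 0.229 to 0.65 CPM in DH-LMP2A and at no more than 3 counts in any kFRA library (against WT, edgeR adjusted p = 0.00276 in DH-LMP2A and 0.000289 in kFRA).

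Irf8, a factor of myeloid and B cells, fell in both (−1.07, edgeR adjusted p = 0.00694, and −1.3, edgeR adjusted p = 0.00322), as did the phosphatase gene Ptpn6 (−1.05, edgeR adjusted p = 0.0053, and −0.94, edgeR adjusted p = 0.01). Of the kinases, Jak1 fell (−0.66, edgeR adjusted p = 0.0245) and Tyk2 rose (0.55, edgeR adjusted p = 0.0433) in kFRA. Socs1, a feedback inhibitor, fell in DH-LMP2A (−2.67, edgeR adjusted p = 0.0277) and Socs3 in kFRA (−2.65, edgeR adjusted p = 0.039). Stat3 fell in DH-LMP2A (−0.71, edgeR adjusted p = 0.0121), as did Myd88, the adaptor of Toll-like receptors (−0.81, edgeR adjusted p = 0.00776). The DNA sensor gene Tlr9 fell in kFRA (−1.9, edgeR adjusted p = 0.0222). Of 31 further interferon-stimulated genes tested, 7 fell in kFRA and 2 in DH-LMP2A, beside 11.1% and 7.3% of all genes, so that the second count is near the background. Irgm2, a GTPase whose exons overlap those of Igtp, and Nlrc5, the activator of MHC class I genes, fell in both. Irgm2 was at 49.7 to 54.9 CPM in WT, 21.1 to 28.9 CPM in DH-LMP2A and 19.9 to 30.2 CPM in kFRA (against WT, edgeR adjusted p = 0.00419 in DH-LMP2A and 0.00668 in kFRA). Those that fell in kFRA alone by the threshold were Slfn8 (−3.37, edgeR adjusted p = 0.00753), Rnf213 (−2.15, edgeR adjusted p = 0.0287), Gbp6 (−1.58, edgeR adjusted p = 0.0464), Znfx1 (−1.41, edgeR adjusted p = 0.0229) and Phf11b (−1.17, edgeR adjusted p = 0.00919), and whether they differ between kFRA and DH-LMP2A was not shown by that comparison. The calls of the pathway genes named here were not equally firm over the 9 fits without 1 library. In kFRA against WT Ifngr2, Ifnlr1, Irf8, Ptpn6, Irgm2, Slfn8 and Phf11b held in 9. Rnf213 and Tlr9 held in 6, Jak1, Ifngr1 and Znfx1 in 5, Tyk2 in 4, and Socs3, Gbp6 and Nlrc5 in 3. In DH-LMP2A against WT Ifnar2, Ifngr2, Ifnlr1, Irf8, Ptpn6, Myd88 and Irgm2 held in 9, Stat3 in 7, and Socs1 and Nlrc5 in 6.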

How the data were processed

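The authors deposited 1 table of raw read counts per gene for 9 libraries. Per the submitters' processing notes, STAR 2.4.0a, featureCounts of Subread 1.5.0-p3 and DESeq2 were used with mm10/GRCm38. Libraries were made with a stranded mRNA kit, per the labels' protocols, and the strand setting of the counting is not given in the sources used here. All 9 libraries were fitted together with edgeR 4.0.16 (R 4.3.3, limma 3.58.1): TMM factors, filterByExpr by genotype, 1 coefficient per genotype, quasi-likelihood F test, and Benjamini-Hochberg adjustment over 14199 genes with a threshold of 0.05. CPM values use TMM library sizes. Standard errors are the log2 fold change over the square root of F. The DESeq2 1.42.0 Wald test, other scalings, filters and covariates, a replicate block and leaving out each library were alternatives. In simulated data for kFRA against WT over 14199 genes, 100 genes were changed 2-fold and 100 were changed 4-fold. Of these 29% and 77% were recovered, with 4 false calls. Counts were drawn for each gene on its own, and few genes were changed. These figures do not give the error rate in the measured libraries, where 17.8% of genes passed in kFRA against WT. Replicates are different mice, and same-numbered libraries had correlations of their deviations from −0.211 to 0.196, so numbers were not taken as pairs. The genes, the pathway and marker lists were chosen with earlier results of these data known. Every gene past the threshold was described with its value in every library, and the others by ranges or the best known gene of a role. Pathway genes past the threshold and the interferon receptors were named, except for a gene that is not reported here. All 42 genes overlapped their GENCODE M21 span, 36 with identical ends. Promoter sequences are from RefSeq (GRCm38.p6).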

Additional observations from a re-analysis of the deposited data

How the results depend on the processing

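The 29 calls of interferon-stimulated genes against WT never changed direction in 662 values under other settings, of which 471 also kept their side of the threshold and 191 did not. Values at an adjusted p under 0.01 and at a fold change of at least 2 came from the main fit, so their direction was fixed. The other settings refitted the same libraries, for calls chosen because they passed. Of the 97 pairs of such a gene and a comparison that were not called, 46 changed direction in some setting. The count of 17 in kFRA against WT became 7 with library size alone, 0 with the covariate of other cells' markers, 4 with that of 7 macrophage markers and 3 at an adjusted p under 0.01, and ran from 3 to 22 when 1 library was left out. The 22 came without kFRA replicate 2, where 38.8% of all genes passed, and the 3 without kFRA replicate 1, where 8.84% did. The count of 12 in DH-LMP2A against WT became 6 with library size alone, 22 with no filter on low counts, 21 with the replicate block, 25 with the Xist covariate, 26 with the DESeq2 Wald test, 4 and 1 with the same 2 marker covariates and 3 at an adjusted p under 0.01, and ran from 6 to 17 with 1 library left out. In the fits without 1 library, 6.42% to 16.3% of all genes passed in DH-LMP2A against WT. Between kFRA and DH-LMP2A the count of 0 became 1 with DESeq2 size factors, no filter, the replicate block, the 6 libraries compared or the Xist covariate, 2 with the DESeq2 Wald test or the macrophage covariate and 6 without both WT replicate 1 and kFRA replicate 2, and ran from 0 to 3 with 1 library left out. Of all genes, 9.9% passed with the DESeq2 Wald test, 8.22% with the macrophage covariate, 22.9% without both libraries and 2.41% to 22.7% with 1 library left out. The counts of 2 and 6 of 42 were no larger shares. The replicate block gave 22 in kFRA against WT, where 20.6% of all genes passed. It pairs different mice. For the other pathway genes, the count of 17 in kFRA against WT became 6 with library size alone, 11 with the 6 libraries compared, 1 and 7 with the marker covariates, 7 at an adjusted p under 0.01 and 11 at a fold change of at least 2, and ran from 7 to 23 with 1 library left out. Of all genes, 13.9% passed with the 6 libraries compared, 11.2% at a fold change of at least 2, and 8.8% to 38.8% with 1 library left out. The pathway count was 7 without kFRA replicate 1, 11 without kFRA replicate 3 and 9 without WT replicate 1. There 8.84%, 10.5% and 11.7% of all genes were called, so that the counts of 7 and 9 are close to the background. The count of 11 in DH-LMP2A became 6 with library size alone, 18 with no filter, 20 with the replicate block, 23 with the Xist covariate, 25 with the DESeq2 Wald test, 6 at an adjusted p under 0.01 and 6 at a fold change of at least 2, and ran from 8 to 19, the latter without kFRA replicate 2. Of all genes, 16.3% passed without kFRA replicate 2 and 8.87% at a fold change of at least 2. Between kFRA and DH-LMP2A the count of 0 became 6 with the DESeq2 Wald test, 4 with the macrophage covariate and 12 without both libraries. It ran from 0 to 9 with 1 library left out, where 2.41% to 22.7% of all genes passed. The counts of 6, 4 and 12 of 65 were no larger shares than those of all genes in these settings. The log2 fold change of Ifngr1 in kFRA against WT turned to 0.02 with the covariate of other cells' markers. Library size alone moved the median of all genes by 0.21 in kFRA and 0.34 in DH-LMP2A on the log2 scale, and the share of calls that were higher to 72% and 79.9%. The cause of these changes was not tested. The share of all genes called moved as well, so these counts do not speak of the interferon genes alone: from 17.8% in kFRA against WT to 23.1% with library size alone, 1.99% and 10.2% with the marker covariates and 6.87% at an adjusted p under 0.01, and from 12.4% in DH-LMP2A against WT to 18.1% with library size alone, 8.17% with no filter, 14.6% with the replicate block, 13.9% with the Xist covariate, 17.8% with the DESeq2 Wald test, 7% and 6.49% with the marker covariates and 5.39% at an adjusted p under 0.01.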
